A study of Mus musculus with 16 samples.

Results

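Matrix metalloproteinases are zinc-dependent proteases that cut collagens, elastin, laminins and other proteins outside cells. The 6 genes described here are Mmp2, Mmp12, Mmp13, Mmp14 and Mmp19, which are 5 such proteases, and Timp1, which encodes a secreted inhibitor of them. They were taken by symbol from a deposited expression table, and all 6 were found among its 831 genes. RNA of whole tibialis anterior muscle, a muscle of the lower leg, was sequenced from mice at postnatal day 30 in 4 genotypes with 4 libraries each. The mdx/miR-133b-/- group carries both the mdx change and the loss of miR-133b. The mdx group carries the mdx change, a mutation of Dmd that removes dystrophin and models Duchenne muscular dystrophy. The miR-133b-/- group lacks miR-133b, a microRNA of skeletal muscle, and the Control group is labelled wild type. The sources used here give no strain, sex, mdx allele or method of miR-133b removal, and do not say whether animals were pooled. Nor do they state that each library stands for an animal of its own, so p-values here rest on a spread between libraries that could be technical.

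Metalloproteinases are made as inactive proenzymes and cut their own inhibitory propeptide or are cut by other proteases. Mmp14 encodes a membrane-anchored enzyme that cuts collagen and activates the product of Mmp2, a gelatinase of connective tissue cells. Mmp13 encodes a collagenase, Mmp12 the elastase of macrophages, and Mmp19 an enzyme that cuts basement membrane proteins. The product of Timp1 binds active metalloproteinases tightly and blocks them, but it is a weak inhibitor of the membrane-anchored and Mmp19 enzymes. In dystrophic muscle, fibres break down and regenerate while macrophages and fibroblasts enter or expand between them, and these proteases are known for remodelling the matrix there.

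All 6 are protein-coding genes on the plus strand in GENCODE M21, on GRCm38. Mmp2 (ENSMUSG00000031740) lies at chr8:92827291-92853420, and Mmp14 (ENSMUSG00000000957) at chr14:54431612-54445364. Mmp19 (ENSMUSG00000025355) lies at chr10:128790910-128800824 and overlaps Gm47093 and Tmem198b on the other strand. Mmp13 (ENSMUSG00000050578) at chr9:7272514-7283331 and Mmp12 (ENSMUSG00000049723) at chr9:7344381-7369499 are neighbours, separated by 61049 bases, and Mmp12 overlaps Mmp1b on the other strand. Timp1 (ENSMUSG00000001131) lies at chrX:20870166-20874735 and overlaps Syn1 on the other strand. None of the 4 overlapping genes is in the table, and no source used here says whether counting used strand, so reads at Mmp12, Mmp19 and Timp1 are uncertain to that extent.

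Because both miR-133b-/- genotypes lack miR-133b, the microRNA's sequence is shown first, from RefSeq on GRCm38.p6 (chr1:20682834-20682855, plus strand), with the seed, bases 2 to 8, in capitals.
mmu-miR-133b-3p: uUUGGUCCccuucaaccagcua
The reverse complement of that seed (GGACCAA) was searched in the longest annotated 3' UTR of each gene. It occurs in none of the 6 members and in 67 of the 779 listed genes that have such a UTR (8.6%). The UTR of Mmp19 holds 1 match to bases 2 to 7 of the microRNA followed by A. Absence of the letters says only that they are not in the annotated sequence searched.

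RefSeq start regions on GRCm38.p6, 250 bases before and 50 after an annotated start, were at hand for Mmp12, Mmp13, Mmp14 and Timp1. They are shown because these genes moved together with mdx but by very different factors. Capitals mark matches to 3 motifs searched on both strands, without overlap between motifs: TGAGTCA, the core bound by AP-1 factors, TATAAA, the TATA box, and GGGCGG, the GC box bound by Sp1 factors.
Mmp13 (chr9:7272264-7272563, plus strand): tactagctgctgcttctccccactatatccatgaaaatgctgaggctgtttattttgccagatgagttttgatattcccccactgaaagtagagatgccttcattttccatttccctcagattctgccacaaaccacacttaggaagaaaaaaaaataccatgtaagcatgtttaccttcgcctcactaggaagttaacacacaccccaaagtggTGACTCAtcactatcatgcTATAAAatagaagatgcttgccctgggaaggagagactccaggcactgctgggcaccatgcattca
Mmp12, second start (chr9:7347124-7347423, plus strand): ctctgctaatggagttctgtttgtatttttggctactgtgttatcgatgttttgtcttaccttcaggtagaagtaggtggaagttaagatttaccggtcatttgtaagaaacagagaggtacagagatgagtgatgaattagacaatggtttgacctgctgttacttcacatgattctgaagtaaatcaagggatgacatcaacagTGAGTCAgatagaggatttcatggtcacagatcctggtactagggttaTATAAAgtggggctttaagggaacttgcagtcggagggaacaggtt
Mmp14 (chr14:54431348-54431647, plus strand): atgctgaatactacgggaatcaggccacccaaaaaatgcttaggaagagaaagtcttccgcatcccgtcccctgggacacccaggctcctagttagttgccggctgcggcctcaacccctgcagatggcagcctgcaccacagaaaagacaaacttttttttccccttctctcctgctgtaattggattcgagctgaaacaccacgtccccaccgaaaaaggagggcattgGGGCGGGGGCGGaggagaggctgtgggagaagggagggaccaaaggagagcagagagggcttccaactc
Timp1 (chrX:20869916-20870215, plus strand): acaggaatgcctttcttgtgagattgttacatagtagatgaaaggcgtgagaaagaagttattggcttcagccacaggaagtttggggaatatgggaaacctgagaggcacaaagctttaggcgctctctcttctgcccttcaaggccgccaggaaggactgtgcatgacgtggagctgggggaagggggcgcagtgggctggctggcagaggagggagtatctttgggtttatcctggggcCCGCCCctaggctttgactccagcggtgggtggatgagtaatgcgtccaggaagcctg
The AP-1 core occurs in Mmp13, where its first base is 35 bases before the start, and at the second start of Mmp12, 44 bases before. It is found in 5.2% of the 32817 RefSeq start regions searched. The same regions of Mmp13 and Mmp12 hold the letters of the TATA box, found in 13.6% of start regions. Their first base is 16 bases before the start in Mmp13. In Mmp12 it is base 5 counted from the second start, so the letters lie after that start. Neither motif is in the regions of Mmp14 and Timp1 in these exact letters, and those regions hold the GC box (35.6% of start regions), 2 adjacent copies in Mmp14 and 1 in Timp1. Near matches were not searched in any region, and that of Timp1 holds tgagtaa, which is 1 letter from the AP-1 core. The first start of Mmp12 holds none of the 3 motifs. A further motif, ACCACA, the core bound by Runx factors, occurs once each in Mmp13, 118 bases before the start, and in Mmp14, 114 bases before, and in 16.8% of start regions. A match is a run of letters and was not tested for binding.

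The deposited values, called scaled reads here, are the authors' counts of reads, each library multiplied by a factor of its own. Reads in the 831 genes numbered 2356990 to 3355306 per library in mdx/miR-133b-/-, 2879407 to 3655796 in mdx, 2699028 to 6000033 in miR-133b-/- and 3219038 to 4317386 in Control, and total depth is unknown. The table is a selection: every listed gene shows a difference of at least 1.72-fold between the mean of mdx/miR-133b-/- and that of miR-133b-/-. That contrast is therefore given below as values with no test, and of the tested comparisons mdx against Control is the one that uses neither of those groups. No listed gene has a mean below 50.1 scaled reads over the 16 libraries, so a gene far below that in Control is listed only if other groups are higher. Listed muscle fibre markers summed to at least 256312 scaled reads in each library, as whole muscle would give. Groups were taken from the sample titles, while for 14 of the 16 libraries a second label holds a code that belongs to a different title; grouped by that code, 0 of the 6 members and 0 of 831 genes passed in mdx against Control. Along the first principal component the 8 libraries titled with mdx lay between 13.9 and 29.4 and the rest between -31.8 and -14.0, a split to which the selection of genes contributes. Dmd is not listed, so the mdx label cannot be checked on its own gene. In bulk muscle, fewer cells of a type and less RNA per cell cannot be told apart.

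Per kilobase of the longest coding transcript, a scale on which genes can be compared, Mmp2 and Mmp14 had the highest means in all 4 groups. In replicate 4 of mdx/miR-133b-/-, however, Timp1 (414) exceeded Mmp2 (226) and Mmp14 (176). In mdx muscle Mmp14 stood at 317 ± 30.4, Mmp2 at 304 ± 55.3, Timp1 at 137 ± 50.1, Mmp19 at 56.3 ± 8.74, Mmp13 at 47.0 ± 37.0 and Mmp12 at 15.6 ± 4.96 scaled reads per kilobase (SD, n = 4). In Control muscle Mmp2 stood at 134.8 ± 42.4, Mmp14 at 120.4 ± 23.2, Mmp19 at 20.8 ± 3.60, Timp1 at 15.8 ± 6.20, Mmp13 at 4.16 ± 3.05 and Mmp12 at 0.646 ± 0.571. In mdx and in Control the ranges over libraries overlapped between Mmp2 and Mmp14. Those of Mmp13 overlapped with Mmp19, Mmp12 and Timp1 in mdx, and those of Mmp19 with Timp1 in Control. Timp1 lay wholly above Mmp19 in mdx, at 72.9 to 195 against 44.9 to 65.8 scaled reads per kilobase.

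The comparison of mdx with Control asks what accompanied the dystrophic change, and the genes of all 5 proteases and of the inhibitor rose. The 6 fell into a group with rises of 2 to 3 times, Mmp2, Mmp14 and Mmp19, and a group with few reads in Control (13, 66 and 78 over the 4 libraries) that rose 8-fold or more, Mmp12, Mmp13 and Timp1. The means of that second group over the 16 libraries (59.6, 62.6 and 81.5 scaled reads) are not far above the lowest listed, 50.1. With Control means of 2.33, 11.1 and 14.0, these genes are listed because other groups are higher. That selection contributes to the size and rank of their rises. The 4 values in mdx lay wholly above the 4 in Control for each member. limma's test called all 6 higher at an adjusted p of 0.05, in a table where it called 66.2% of genes (44.5% of genes higher) and where 46.2% of genes had mdx values wholly above Control. The median log2 fold change was 2.22 over the members and 0.44 over all 831 genes.

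**Figure D1:**
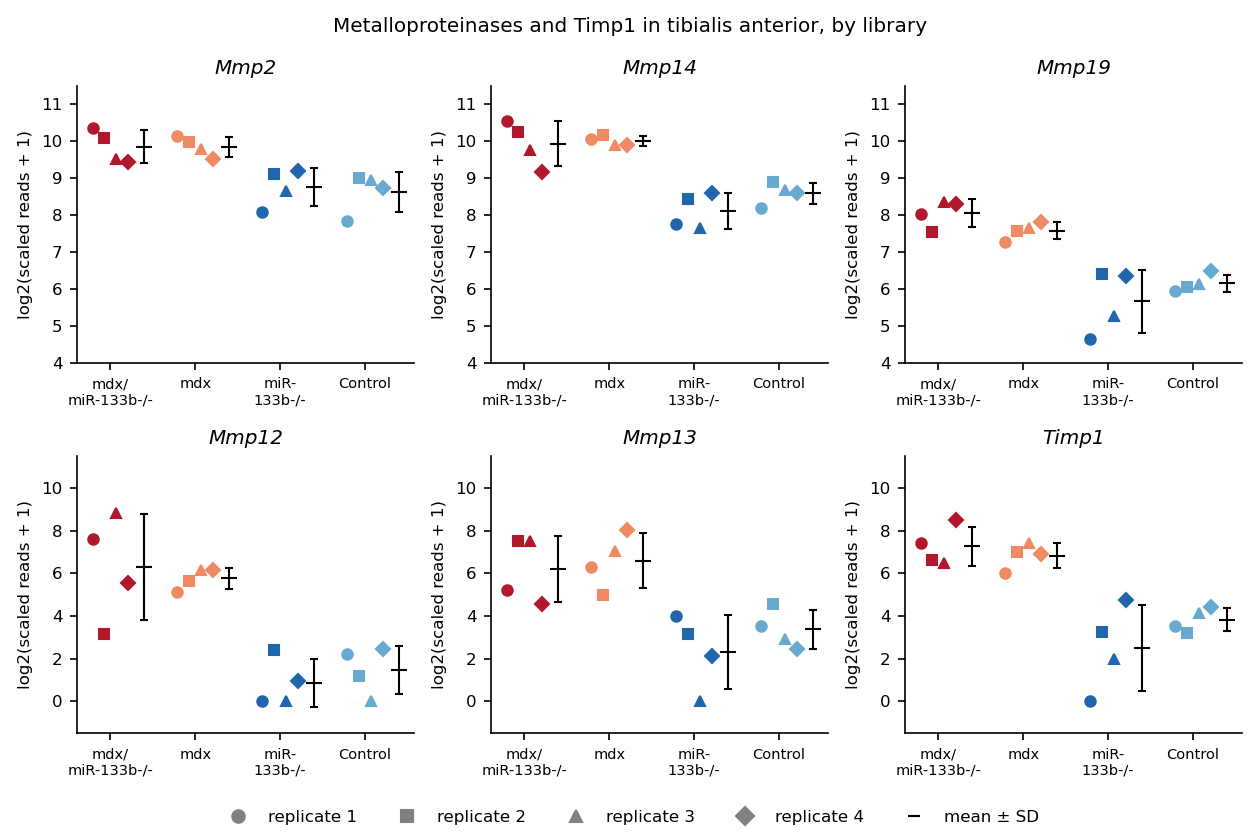
Each panel plots 1 gene, with log2(scaled reads + 1) on the y axis and the 4 genotypes on the x axis; each point is a library and the bar is the mean ± SD (n = 4). The mdx points lie above all Control points in every panel, and the mdx/miR-133b-/- points of Mmp12 spread between 7.95 and 465 scaled reads.

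Mmp14, the membrane-anchored collagenase, had 1060.1, 1151, 947 and 949 scaled reads in mdx and 292, 473, 409 and 386 in Control. The lowest mdx library held about double the highest Control library, and mdx libraries differed little among themselves. Its fold change was 2.66 (95% interval 1.80 to 3.94, adjusted p = 0.000334).

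Mmp2, the gelatinase that Mmp14 activates, had 1124, 1011, 884 and 729 scaled reads in mdx and 227, 508, 497 and 428 in Control. Control replicate 1 was low and the other 3 stood close together. That gave a fold change of 2.33 (1.54 to 3.54, adjusted p = 0.00147).

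Mmp19 had 153, 188, 201 and 224 scaled reads in mdx and 60.03, 65.1, 69.5 and 88.1 in Control. Both groups were tight, with SDs of 0.23 each on the log2 scale, near the median of all listed genes (0.21 in mdx and 0.27 in Control). The fitted fold change was 2.69 (1.68 to 4.31, adjusted p = 0.00119), close to that of Mmp14.

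Timp1, the inhibitor, had 64.3, 127, 172 and 118 scaled reads in mdx and 10.7, 8.21, 16.8 and 20.2 in Control. Every mdx library exceeded the highest Control library by more than 3 times. Timp1 was 8.08 times as high in mdx (2.86 to 22.8, adjusted p = 0.00163), the 18th highest of 831; with a pseudocount of 10 in place of 1 the log2 value was 2.40 in place of 3.01.

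Mmp12, the macrophage elastase, had 34.1, 48.9, 71.2 and 70.2 scaled reads in mdx and 3.57, 1.26, 0 and 4.48 in Control. The Control libraries held 13 reads in all and 1 held none, which allows up to 2.19 scaled reads (the value of 3 reads, for counting error only). On log2(value + 1) the fold change was 19.96 (4.68 to 85.1, adjusted p = 0.00136), the 3rd highest of 831. Its size depends on the pseudocount, since with 10 in place of 1 the log2 fold change was 2.39 in place of 4.32.

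Mmp13, the collagenase, had 79.2, 30.6, 132 and 260.4 scaled reads in mdx and 10.7, 22.7, 6.58 and 4.48 in Control. The mdx values differed by 8.51 times among themselves, and the lowest of them was not far above the highest Control value. Of all 831 genes Mmp13 varied most between mdx libraries (SD 1.28 on the log2 scale). On average Mmp13 was 9.35 times as high in mdx (2.71 to 32.3, adjusted p = 0.00352). Mmp13 is the member whose call did not hold in limma-voom on the reads behind the values (adjusted p = 0.0567), and with a pseudocount of 10 its log2 fold change was 2.44 in place of 3.23.

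**Figure D2:**
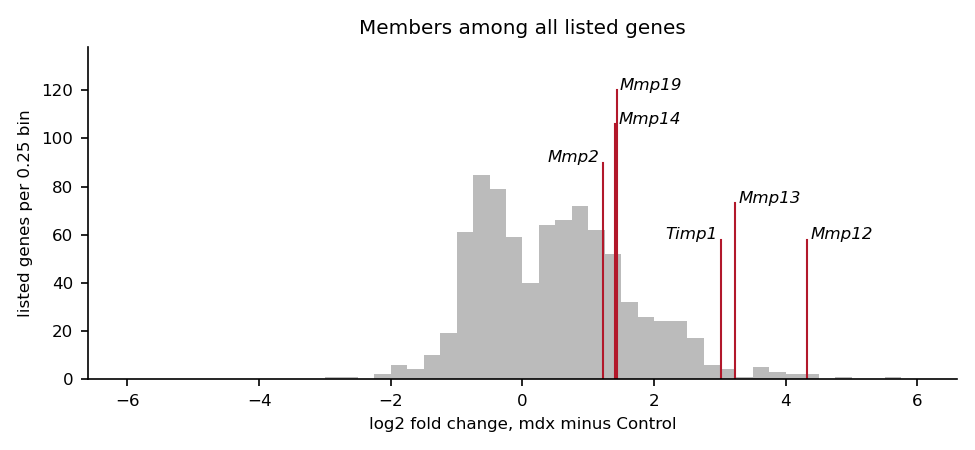
The histogram counts the 831 listed genes by log2 fold change of mdx over Control (x axis, bins of 0.25), and the lines mark the 6 members. Mmp2, Mmp14 and Mmp19 lie within the main body of genes, at 1.22 to 1.43, while Timp1 (3.01), Mmp13 (3.23) and Mmp12 (4.32) lie in its upper tail.

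Scaling moved the size of these changes but not their calls. Relative log expression factors from the listed genes shifted the median of all genes to 0.09, against 0.44 with the authors' factors, and 49.1% of called genes were then higher, against 67.3%. The members stood at 0.87 (Mmp2) to 4.03 (Mmp12) under those factors and all 6 were called. With reads in listed genes as library size the median was 0.95, 93.5% of called genes were higher, and the members stood at 1.73 (Mmp2) to 4.71 (Mmp12), all called.

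The Timp1 to metalloproteinase ratio was taken within a library as the difference of log2(value + 1), to which the added 1 contributes where reads are few. It stood at -3.01 ± 0.77 in mdx and -4.80 ± 0.70 in Control for Mmp2, at -3.16 ± 0.65 and -4.76 ± 0.65 for Mmp14, and at -0.73 ± 0.44 and -2.32 ± 0.39 for Mmp19 (SD, n = 4 each). Each of these 3 ratios was higher in mdx by 1.59 to 1.79, with no overlap between the groups. The exact two-sided permutation test gave p = 0.0286 for each, the smallest that 4 against 4 allows, and 0.143 after adjustment over 15 ratio tests, so they did not pass. With a pseudocount of 10 the differences were 1.20 for Mmp2, 1.01 for Mmp14 and 1.08 for Mmp19, with an adjusted p of the exact test of 0.429 for each, against 0.107 with a pseudocount of 0.5. Against Mmp12 the ratio was 1.07 ± 0.29 in mdx and 2.37 ± 1.23 in Control, a difference of -1.31 (exact p = 0.0571, adjusted p = 0.214). Against Mmp13 it was 0.24 ± 1.34 in mdx and 0.45 ± 1.46 in Control. With a pseudocount of 10 the Mmp12 difference was gone (0.0085).

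**Figure D3:**
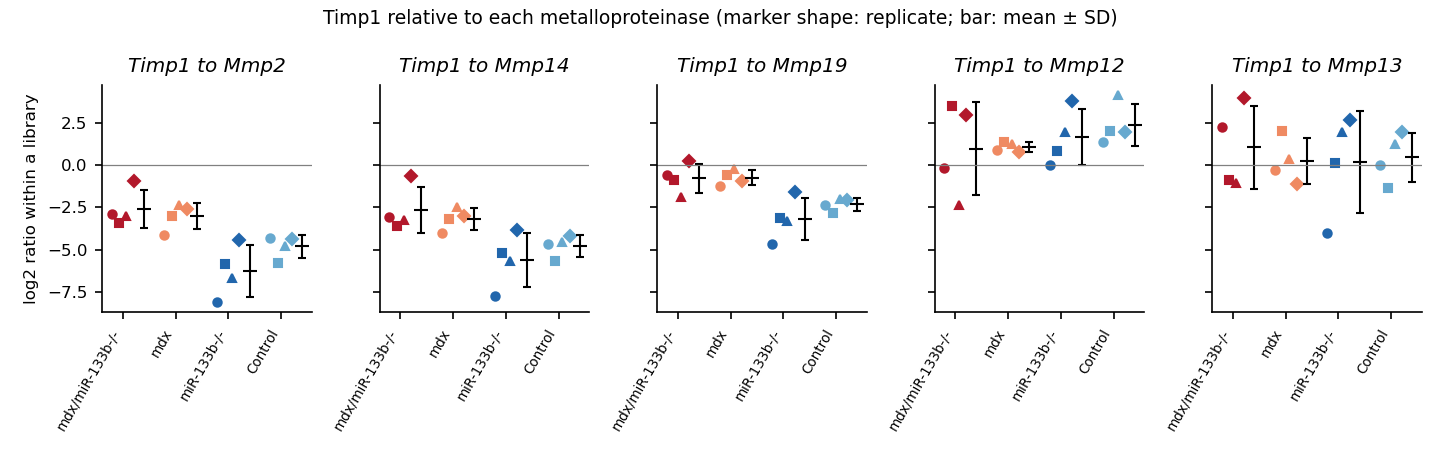
The y axis is the log2 ratio of Timp1 to each metalloproteinase (scaled reads + 1) within a library and the x axis the 4 genotypes; points are libraries and bars the mean ± SD (n = 4). The ratios to Mmp2, Mmp14 and Mmp19 lie higher in mdx than in Control without overlap, whereas those to Mmp12 and Mmp13 overlap or spread widely.

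Other genes of the pathway were counted from lists of known roles. The table holds 0 of 18 other metalloproteinase genes, Mmp3, Mmp8 and Mmp9 among them, and 0 of 5 other inhibitors, which were Timp2, Timp3, Timp4, Reck and A2m; they were not analysed here. Of 20 matrix substrates 7 are listed (Col3a1, Col5a2, Fn1, Lama2, Tnc, Vcan and Bgn), and all 7 rose in mdx. The smallest p-values were those of Tnc, tenascin C, at 813 ± 270 scaled reads in mdx and 201 ± 94.7 in Control (log2 fold change 2.09, SE 0.39), and of Col5a2, a fibrillar collagen chain, at 3123 ± 190.3 and 1421 ± 371 (1.17, SE 0.22). Of 10 genes of activation and uptake 2 are listed and both rose. Thbs2, a thrombospondin that helps clear Mmp2 from the matrix, stood at 311 ± 25.7 in mdx and 118 ± 26.4 in Control (1.41, SE 0.26), and Cd44, a receptor that holds proteases at the cell surface, at 729 ± 67.5 and 464 ± 82.4 (0.66, SE 0.23). Of 18 cytokine and receptor genes 2 are listed and both rose: Csf1r, the receptor of macrophage growth factors (2.19, SE 0.35), and Tnfrsf1b, a receptor of tumour necrosis factor (1.23, SE 0.22). Of 8 plasminogen genes Serpine2, an inhibitor of plasminogen activators, is listed and fell by 0.78 on the log2 scale (SE 0.20). Of 15 transcription factors of metalloproteinase genes Runx2 is listed, a regulator of Mmp13 in bone and cartilage, and it rose (1.92, SE 0.30). Listed genes were selected on a contrast that includes the mdx change, so these counts do not describe whole lists. Of all listed genes, 44.5% were called higher in mdx against Control.

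Markers of cell types moved in the same comparison. Of 18 macrophage markers 13 are listed and 12 rose, the exception being Mrc1 (0.33, adjusted p = 0.234). Their sum was 6776, 8127, 10558 and 6995 scaled reads in mdx and 2324, 1849.7, 1539 and 1634 in Control, with none of the 13 at 0 in these libraries. Of 14 fibroblast and fibro-adipogenic markers 5 are listed and all 5 rose. They summed to 37234 to 39597 scaled reads in mdx and 11723 to 21604 in Control, most of it from Col3a1 (means 30472 and 16626). Both listed tendon markers of 8, Thbs4 and Col12a1, rose as well, and so did all 7 listed regenerating fibre markers of 9. Among all listed genes, limma called 44.5% higher in this comparison. Muscle fibre markers summed to 375355 to 552424 in mdx and 592292 to 730109.7 in Control, with Ckm and Myh4 lower and Actn3 (-0.52) and Pvalb (-0.22) not passing. Flt1, the listed endothelial marker of 7, fell by 0.75 on the log2 scale. No neutrophil marker of 10 and no satellite cell marker of 5 is listed. The part of these cell types in the rise of the 6 members was not tested.

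**Figure D4:**
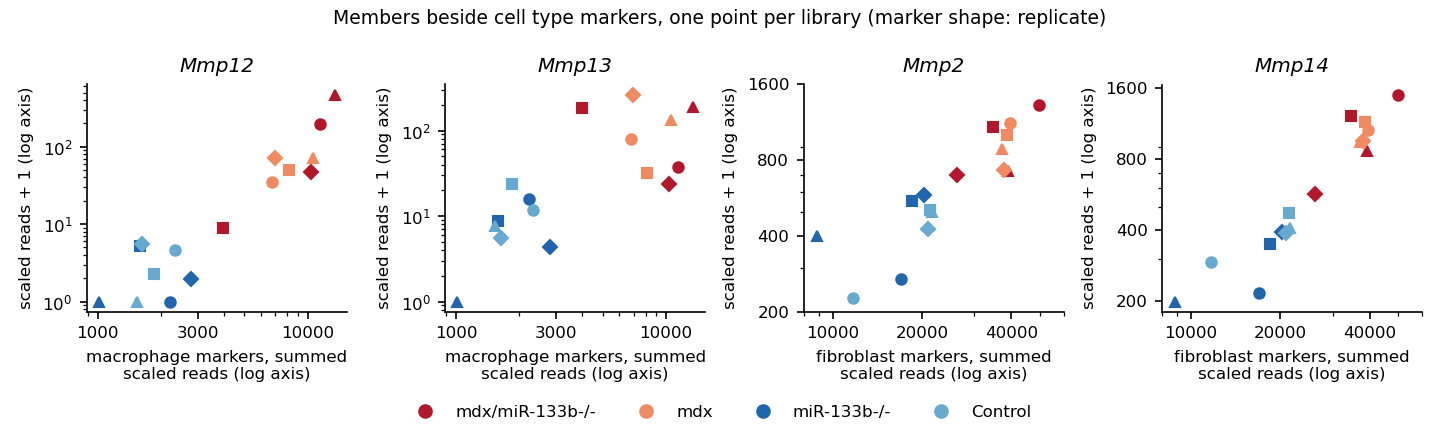
Each point is a library, with the summed scaled reads of listed macrophage markers (Mmp12 and Mmp13) or of fibroblast and fibro-adipogenic markers (Mmp2 and Mmp14) on the x axis and the member's scaled reads + 1 on the y axis, all axes log. Within mdx/miR-133b-/-, Mmp12 is highest in the library with the highest macrophage sum (replicate 3) and lowest in that with the lowest (replicate 2). Mmp13 is also highest in replicate 3, but nearly as high in replicate 2 and lowest in replicate 4.

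Without miR-133b, non-dystrophic muscle showed no detectable change in any of the 6. limma called 0 of 6 members in miR-133b-/- against Control and 0 of 831 genes (0.0%), with 84 genes at an unadjusted p under 0.05, none of them a member, and limma-voom called 0. The estimates were 0.12 for Mmp2, -0.48 for Mmp14, -0.48 for Mmp19, -0.62 for Mmp12, -1.06 for Mmp13 and -1.33 for Timp1 on the log2 scale. The groups overlapped in all 6 members; among all genes 2.77% had miR-133b-/- values wholly above Control and 1.93% wholly below.

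Mmp2, Mmp14 and Mmp19 bounded the difference best. Mmp2 had 269, 552, 401 and 582 scaled reads in miR-133b-/- and 227, 508, 497 and 428 in Control, with a 95% interval of 0.72 to 1.65-fold. Mmp14 had 215, 348, 198 and 389.9 in miR-133b-/- and 292, 473, 409 and 386 in Control (0.49 to 1.06-fold). Mmp19 had 24.0, 82.8, 37.5 and 81.0 in miR-133b-/- and 60.03, 65.1, 69.5 and 88.1 in Control (0.45 to 1.15-fold). In Mmp14 and Mmp19, replicates 1 and 3 of miR-133b-/- lay below all Control libraries and replicates 2 and 4 within their range.

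The low members could not be resolved. Timp1 had 0, 8.57, 2.94 and 26.1 scaled reads in miR-133b-/- and 10.7, 8.21, 16.8 and 20.2 in Control (0.14 to 1.12-fold, adjusted p = 0.563), so that replicates 1 and 3 lay below and replicate 4 above all Control libraries. Mmp13 had 15, 7.85, 0 and 3.32 in miR-133b-/- and 10.7, 22.7, 6.58 and 4.48 in Control. Mmp12 had 0, 4.28, 0 and 0.948 in miR-133b-/- and 3.57, 1.26, 0 and 4.48 in Control. A library at 0 allows up to 3 scaled reads in replicate 1 and 2.21 in replicate 3 of miR-133b-/-. Timp1 ranked 827th and Mmp13 816th from the highest of 831 by log2 fold change, but their intervals include no change. The table appears selected on a contrast that includes miR-133b-/-, where these members are lower than in mdx/miR-133b-/-. Selection thus favours negative values and low ranks here. With a pseudocount of 10 the log2 value was -0.45 in place of -1.33 for Timp1 and -0.36 in place of -1.06 for Mmp13. Macrophage markers summed to 2220.0, 1584, 1012 and 2796 in these miR-133b-/- libraries, with Itgax at 0 in replicate 3, and fibroblast markers to 16966, 18471, 8835 and 20326. Replicate 3 was lowest in both sums, and the part of this in the member values was not tested.

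In mdx muscle, the comparison of mdx/miR-133b-/- with mdx asks what the loss of miR-133b added. limma called 0 of the 6 members, in a table where it called 162 genes (19.5%), 7.46% higher and 12.0% lower. limma-voom also called 0 members, with 171 genes called, and no member had an unadjusted p under 0.05. The groups overlapped in all 6 members, while mdx/miR-133b-/- values lay wholly above mdx in 10.3% of all genes and wholly below in 16.2%. The members' median log2 fold change was 0.22, and -0.04 over all 831 genes. The members are higher in mdx/miR-133b-/- in the contrast on which the table appears selected, so selection favours positive values here.

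Mmp2 and Mmp14 had close mean levels in both groups. Mmp2 had 1322, 1088, 727 and 697 scaled reads in mdx/miR-133b-/- and 1124, 1011, 884 and 729 in mdx, a fold change of 0.999 (0.66 to 1.51). Mmp14 had 1497, 1215, 867 and 569 in mdx/miR-133b-/- and 1060.1, 1151, 947 and 949 in mdx, a fold change of 0.951 (0.64 to 1.41). In Mmp14, 2 mdx/miR-133b-/- libraries lay above all mdx libraries and the other 2 below them. Replicate 1 was highest and replicate 4 lowest in both genes and in the summed fibroblast markers, which were 49738, 34666, 39102 and 26252 in mdx/miR-133b-/- and 39597, 38649, 37234 and 37947 in mdx. Replicates 2 and 3 of mdx/miR-133b-/- had the reverse order in that sum. Most of the sum is Col3a1 (mean 29331 in mdx/miR-133b-/-), which is also a listed matrix substrate. The part of fibroblasts in the values of Mmp2 and Mmp14 was not tested.

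Mmp19 had 259, 185, 327 and 315 scaled reads in mdx/miR-133b-/- and 153, 188, 201 and 224 in mdx. Of the 4 mdx/miR-133b-/- libraries 3 lay above all mdx libraries, and replicate 2 lay among them. The fitted ratio was 1.39 (0.87 to 2.23, adjusted p = 0.334), an interval that includes no change and reaches to about double.

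Timp1 had 174, 99.4, 88.9 and 365 scaled reads in mdx/miR-133b-/- and 64.3, 127, 172 and 118 in mdx. Replicate 4 of mdx/miR-133b-/- was more than double every mdx library and replicate 1 just above them, while replicates 2 and 3 lay within the mdx range. Timp1's fold change was 1.35 (0.48 to 3.82, adjusted p = 0.731). The Timp1 ratio to Mmp2 was -2.58 ± 1.12 in mdx/miR-133b-/- and -3.01 ± 0.77 in mdx on the log2 scale (SD, n = 4 each; exact permutation p = 0.571), and the smallest adjusted p among the 5 ratios was 0.896.

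Mmp12 differed most between libraries of the same genotype. It had 196, 7.95, 465 and 45.4 scaled reads in mdx/miR-133b-/- and 34.1, 48.9, 71.2 and 70.2 in mdx. The highest mdx/miR-133b-/- library was 58.5 times the lowest, against 2.09 times in mdx. Its SD of 2.50 on the log2 scale in mdx/miR-133b-/- was the highest of 831 genes, against a median of 0.38, and it was 0.49 in mdx. Mmp12 is listed at a mean of 59.6 over the 16 libraries, near the lowest of 50.1, and the library at 465 contributes to that mean. The fold change was 1.44 with an interval of 0.34 to 6.12. It rested on single libraries, since the log2 value of 0.52 became -0.33 without replicate 3 of mdx/miR-133b-/- and 1.57 without replicate 2.

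Macrophage markers were also uneven in mdx/miR-133b-/-, at 11426, 3959, 13479.7 and 10344 summed scaled reads, against 6776, 8127, 10558 and 6995 in mdx. Within mdx/miR-133b-/-, this sum and Mmp12 had the same order of libraries, replicates 3, 1, 4 and 2 from the highest. The sum spanned 3.40 times where Mmp12 spanned 58.5 times. Replicate 4 had a sum close to those of replicates 1 and 3 but a Mmp12 value among those of mdx. The sum weighs abundant markers most, as Lyz2 alone had a mean of 5214 in mdx/miR-133b-/- (1842 to 7410). Single markers were uneven to different degrees there, from Mrc1 at 610 to 1212 to Itgax at 13.3 to 189. The part of the macrophage content in the Mmp12 values was not tested.

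Mmp13 had 36.2, 184, 186 and 22.4 scaled reads in mdx/miR-133b-/- and 79.2, 30.6, 132 and 260.4 in mdx, spread over a like range in both groups. A fold change of 0.764 was fitted (0.22 to 2.64). Within mdx/miR-133b-/-, Mmp13 was highest in replicate 3, as were Mmp12 and the macrophage marker sum. It was nearly as high in replicate 2, where those were lowest, and low in replicates 1 and 4. The 2 neighbouring genes thus had different orders over the same libraries.

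Among the pathway genes, Runx2 and Cd44 were higher in mdx/miR-133b-/- than in mdx. Runx2 had 143, 159, 228 and 226 scaled reads in mdx/miR-133b-/- and 84.1, 83.8, 88.8 and 120.1 in mdx (log2 fold change 0.98, SE 0.30, adjusted p = 0.0303). Cd44 had 984, 865, 1297 and 1762 in mdx/miR-133b-/- and 638, 794, 722 and 762 in mdx (0.70, SE 0.23, adjusted p = 0.0410). The groups did not overlap in either gene, and 10.3% of all genes had mdx/miR-133b-/- values wholly above mdx. limma called 7.46% of genes higher. Whether the calls of Runx2 and Cd44 hold in the alternative fits was not examined. With GC content and length trends removed, 55 genes were called in place of 162. The listed matrix substrates, cytokine receptors, Thbs2 and Serpine2 did not pass, nor did any macrophage, fibroblast, tendon, endothelial or regenerating fibre marker. Of the 4 listed muscle fibre markers 3 were called lower, Ckm, Actn3 and Pvalb, in a table where 12.0% of genes were. The 4 summed to 256312 to 320334 scaled reads in mdx/miR-133b-/- and 375355 to 552424 in mdx.

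**Figure D5:**
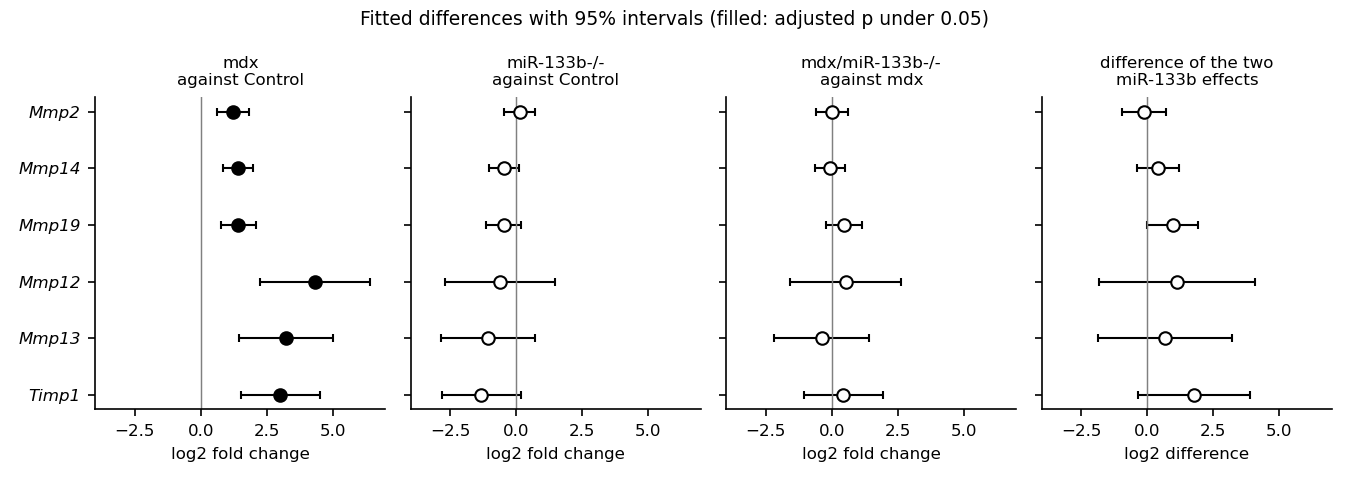
Points are fitted log2 differences of the 6 members with 95% intervals (x axis) in 3 comparisons, and in the last panel the miR-133b effect in mdx muscle minus that in muscle with dystrophin; filled points have an adjusted p under 0.05. All 6 are filled in mdx against Control, from 1.22 (Mmp2) to 4.32 (Mmp12), and none is filled elsewhere.

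The difference between both effects of miR-133b loss, that in mdx muscle minus that in muscle with dystrophin, passed for 0 of 6 members and for 8 of 831 genes (0.963%) in limma, with 1 member, Mmp19, at an unadjusted p under 0.05, and for 0 members in limma-voom. It was positive for Timp1 (1.76, interval -0.35 to 3.88), Mmp12 (1.14), Mmp19 (0.96), Mmp13 (0.67) and Mmp14 (0.40) and negative for Mmp2 (-0.13). The same value is the contrast of mdx/miR-133b-/- with miR-133b-/- minus that of mdx with Control. The table appears selected on the former, where all 6 members are higher in mdx/miR-133b-/-. Selection thus favours positive values and high ranks here. Mmp19 had an interval of 0.0018 to 1.92, with an unadjusted p of 0.0496 and an adjusted p of 0.24 in limma. Timp1, at the 5th highest value of 831, had an adjusted p of 0.323, and its difference was 0.87 with a pseudocount of 10 and 0.93 to 2.52 without 1 library. A pseudocount of 10 gave 0.041 for Mmp13.

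With both changes together, all 6 members were higher in mdx/miR-133b-/- than in Control by limma's test. It called 91.2% of listed genes in this comparison and 54.3% higher. The table appears selected on a contrast that includes mdx/miR-133b-/-, where these members are higher. That selection contributes to these calls and to the size of the fold changes. The values lay wholly above Control for 5 members, where 44.9% of genes did, and Mmp13 overlapped with 3 of 4 libraries above. The fold change was 2.33 for Mmp2, 2.53 for Mmp14, 3.75 for Mmp19, 7.15 for Mmp13, 10.9 for Timp1 and 28.7 for Mmp12. Control libraries are shared with the mdx comparison, whose values were 2.33, 2.66, 2.69, 9.35, 8.08 and 19.96 for the same genes in that order. The Mmp12 value moved with single libraries, at a log2 of 5.89 without replicate 2 and 3.98 without replicate 3 of mdx/miR-133b-/-, against 4.84 with all. The call of Mmp13 did not hold in limma-voom (adjusted p = 0.076). A pseudocount of 10 gave log2 values of 3.03 for Mmp12, 2.11 for Mmp13 and 2.82 for Timp1, against 4.84, 2.84 and 3.45 with 1.

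For the contrast on which the table appears selected, mdx/miR-133b-/- over miR-133b-/-, the ratios of mean scaled reads were 2.13 for Mmp2, 3.60 for Mmp14, 4.82 for Mmp19, 16.4 for Mmp13, 19.4 for Timp1 and 137 for Mmp12. Mmp2 lay nearest the smallest ratio of the table, 1.72. The miR-133b-/- mean of Mmp12 rests on 8 reads in 4 libraries.

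Genes most like each member were sought by the root mean square difference of log2 values, each centred on its own mean, over the 16 libraries, which share their group differences. The nearest to Mmp2 were Ezr (0.25), Lsp1 (0.25) and Rassf2 (0.28), and to Mmp14 Adcy7 (0.32), Srgap3 (0.33) and Lum (0.34), the last a collagen-binding proteoglycan. Mmp2 and Mmp14 lay 0.38 apart, Mmp14 being the 30th nearest of 830 genes to Mmp2 and Mmp2 the 19th nearest to Mmp14. The nearest to Mmp19 were Cd33 (0.38), a receptor of myeloid cells, Lpcat2 (0.40) and C5ar1 (0.43), the complement C5a receptor. The members with small distances were those with a small spread.

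Among the genes reported here, Timp1 was nearest to Ms4a4a (0.86) and Laptm5 (0.97), and among members to Mmp19 (1.253, 27th of 830). Mmp12 was nearest to Gpnmb (1.01), Mpeg1 (1.09) and Itgax (1.20), genes known from macrophages and dendritic cells. Gpnmb had 483, 42.4, 1420.2 and 226 scaled reads in mdx/miR-133b-/-, the same order of libraries as Mmp12, and 187, 319.9, 479.6 and 314 in mdx. Itgax had 119, 13.3, 189 and 41.5 in mdx/miR-133b-/- and 81.4, 119, 111 and 96.5 in mdx, again with replicate 3 highest and replicate 2 lowest in mdx/miR-133b-/-. Mmp13 was nearest to Agtr2 (1.10), an angiotensin receptor, Cyfip2 (1.12) and the long noncoding RNA Gm28653 (1.247), none of them a gene of the macrophage list. Agtr2 had 193, 188, 177 and 47.4 in mdx/miR-133b-/- and 101, 117, 82.8 and 134.7 in mdx. Mmp13 and Mmp12 lay 1.88 apart, Mmp12 being the 340th nearest of 830 genes to Mmp13 and Mmp13 the 92nd nearest to Mmp12.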

How the data were processed

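RNA of 16 tibialis anterior libraries was measured by sequencing. The deposited table holds 1 signal value per gene and library, which the authors made from reads aligned to GRCm38 with HISAT2 and counted with HTSeq, per the submitters' processing notes; no source used here gives versions, settings or strand use. The values are whole reads times 1 factor per library (0.459 to 1): dividing by it gave whole numbers, within 0.001, for 100% of values. Libraries were grouped by title. The description field names another sample's code for 14 of 16, and grouping by it was tried.

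The deposited values are scaled, so log2(value + 1) was fitted with limma 3.58.1 in R 4.3.3, with 1 mean per group over all 16 libraries, a variance trend, no filter and Benjamini-Hochberg adjustment over 831 genes at 0.05; the procedure was tested on simulated data. Fold changes understate the change of low genes. Timp1 ratios used exact permutation tests in scipy 1.17.1. Start regions on chromosome 18 were not used. Symbols and coordinates come from GENCODE M21, which held all 831 identifiers. Members and gene lists were chosen with earlier results of these data known. Named are the 6 members, the 3 nearest genes of each (1 gene near Timp1 is not reported here), and the listed genes of each pathway list, with values for the 2 smallest p-values in mdx against Control; per-library values of Runx2, Cd44, Gpnmb, Itgax and Agtr2 were chosen after their values were seen. Alternatives were scalings, pseudocounts of 0.5 and 10, no trend, a minimum mean of 100, removal of GC and length trends, fits on 2 groups, a replicate block, each library left out and, chosen after seeing the data, limma-voom on the recovered reads.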

Additional observations from a re-analysis of the deposited data

How the results depend on the processing

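In mdx against Control, all 6 members were called under each of 3 other scalings, both pseudocounts, no variance trend, the fit on 2 groups, removal of GC content and length trends and the replicate block, and without each library in turn (474 to 538 genes called, 550 with all libraries). A minimum mean of 100 left 3 members to test, and all 3 were called, here and in mdx/miR-133b-/- against Control, since it removes Mmp12, Mmp13 and Timp1. Grouping by the description field called 0 members and 0 genes, with Mmp13 at -0.39 and Mmp14 at -0.15. No pairing by replicate number was seen: the correlation of same-numbered libraries exceeded 0.1 in 0 or 1 of 4 pairs between any 2 groups. Low correlation cannot show that same-numbered samples were unrelated. The replicate block called 6 members in mdx against Control (541 genes), 0 in miR-133b-/- against Control (0 genes), 0 in mdx/miR-133b-/- against mdx (120 genes), 6 in mdx/miR-133b-/- against Control (749 genes) and 0 in the interaction (7 genes). limma-voom on the recovered reads called 5 members, all but Mmp13, in mdx against Control and in mdx/miR-133b-/- against Control. The planned edgeR test on those reads was not run.

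No member was called in miR-133b-/- against Control, in mdx/miR-133b-/- against mdx or in the interaction under any alternative run. In mdx/miR-133b-/- against mdx, Mmp2 (-0.0017 as reported) changed sign with upper quartile factors (0.0013), reads in listed genes as library size (0.26), GC content and length trends removed (0.24) and limma-voom (0.0056), and Mmp14 (-0.07) with reads in listed genes as library size (0.19) and GC content and length trends removed (0.12). The genes called in all were 92 with reads in listed genes as library size, 73.9% of them higher against 38.3%, 55 with GC content and length trends removed, and 49 to 197 without 1 library, the lowest without replicate 4 of mdx/miR-133b-/-; the count was 70 without its replicate 3, and 71, 56 and 84 without mdx replicates 1, 3 and 4. Leaving out 1 library gave -0.17 to 0.13 for Mmp2, -0.33 to 1.57 for Mmp12, -0.93 to 0.17 for Mmp13, -0.28 to 0.19 for Mmp14 and 0.022 to 0.70 for Timp1. In the interaction, Mmp2 (-0.13) changed sign with reads in listed genes as library size (0.16) and with GC content and length trends removed (0.037), and without 1 library ranged over -0.35 to 0.14, Mmp12 over 0.28 to 2.18, Mmp13 over -0.10 to 1.23 and Timp1 over 0.93 to 2.52. Its genes called were 14 with relative log expression factors, 4 at a minimum mean of 100, 5 with GC content and length trends removed and 7 to 110 without 1 library, the highest without replicate 2 of miR-133b-/- and 15 without replicate 1 of mdx/miR-133b-/-. In miR-133b-/- against Control, the ranges without 1 library were -0.14 to 0.35 for Mmp2, -1.14 to -0.28 for Mmp12, -1.62 to -0.29 for Mmp13 and -2.08 to -0.50 for Timp1.

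Ratio differences changed sign with a pseudocount of 10 for Timp1 to Mmp12 in mdx against Control (0.0085) and Timp1 to Mmp14 in miR-133b-/- against Control (0.0083). Without 1 library, Timp1 to Mmp13 ranged over -0.82 to 0.29 in mdx against Control and -1.09 to 1.13 in miR-133b-/- against Control. In mdx/miR-133b-/- against mdx the ranges were -0.11 to 0.73 for Mmp2, -0.92 to 1.03 for Mmp12, -0.14 to 1.53 for Mmp13, -0.16 to 0.82 for Mmp14 and -0.37 to 0.32 for Mmp19. None of these ratios passed. The causes were not tested. Depth limits Mmp12, Mmp13 and Timp1 without the mdx change. Libraries there held 0 to 6 reads of Mmp12, 0 to 36 of Mmp13 and 0 to 55 of Timp1.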
